A study of Mus musculus with 6 samples.

Results

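Skeletal muscle sarcomere genes encode the contractile filaments of muscle fibers and the proteins that anchor, trigger and fuel them. The list held 40 genes, taken by name, and all 40 were found among the 21958 protein-coding genes of the deposited table. It was divided into 14 genes typical of fast fibers, 9 typical of slow fibers and 17 used by both fiber types. Reads of these genes varied strongly from one tumor piece to the next, so each gene is given library by library.

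RNA was measured in tumors of MC38, a mouse colon carcinoma line, grown under the skin of the right flank of wild-type male C57BL/6J mice 6 to 8 weeks old. The vehicle group received 50 µL of saline into the tumor every 3 days, and the other group received Mn-N/C, a carbon and nitrogen nanoparticle carrying single manganese atoms, at 70 mg/kg in the same volume and rhythm. The first injection was given at 60 mm³, the tumors were taken out once they measured 800 to 1000 mm³, and each group has 3 libraries. Values of the vehicle and of the Mn-N/C libraries are listed throughout in the order of replicates 1, 2 and 3. The labels do not say that the replicates came from separate mice, and every p-value therefore reflects only how far these samples lie apart, which may be partly technical.

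In skeletal muscle, myosin in the thick filaments pulls on actin in the thin filaments. Calcium released from the sarcoplasmic reticulum binds troponin and frees actin for this pull, the Z disc ties neighbouring sarcomeres together, and creatine kinase and glycogen breakdown supply the energy. Fast and slow fibers build the same machine from different paralogs, above all different myosin heavy chains. A subcutaneous flank tumor can lie against the thin muscle layers of skin and body wall, and MC38 cells are not muscle cells. In such bulk RNA, fewer fibers in a piece and less of these RNAs per fiber cannot be told apart.

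Muscle promoters often carry E-boxes, the CANNTG sites that MyoD family factors bind, together with MEF2 sites and the CArG boxes that serum response factor binds. RefSeq promoter windows on GRCm38.p6 were available for 33 of the 40 genes and 27025 genes in all. In the 250 bases before the first listed start of each gene, on both strands, the E-box CAGCTG stood in 14 of these 33 genes (42.4%) and in 12.8% of all genes. With every listed start of a gene searched, it stood in 16 of the 33 (48.5%) and in 14.7% of all genes. At the first listed start the broader E-box CANNTG, which includes CAGCTG, stood in 81.8% against 66% of all genes. A MEF2 site was present in 18.2% against 3.01%, and a CArG box in 12.1% against 1.4%. These matches describe letters only. The windows below belong to 3 genes whose reads followed the muscle pattern described next and to Eno3, which did not follow it, and capitals mark CAGCTG, MEF2 and CArG matches.
Acta1, chr8:123894776-123895025, minus strand: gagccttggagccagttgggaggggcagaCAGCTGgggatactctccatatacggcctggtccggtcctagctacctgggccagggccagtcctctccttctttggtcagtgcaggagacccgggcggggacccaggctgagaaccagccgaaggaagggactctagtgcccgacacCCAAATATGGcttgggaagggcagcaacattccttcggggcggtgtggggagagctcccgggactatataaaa
Myh4, chr11:67237562-67237811, plus strand: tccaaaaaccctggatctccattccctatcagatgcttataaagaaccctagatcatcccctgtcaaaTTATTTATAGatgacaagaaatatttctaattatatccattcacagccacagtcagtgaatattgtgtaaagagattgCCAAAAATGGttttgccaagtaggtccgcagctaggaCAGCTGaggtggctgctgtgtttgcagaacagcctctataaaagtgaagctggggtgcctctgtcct
Mylpf, chr7:127211358-127211607, plus strand: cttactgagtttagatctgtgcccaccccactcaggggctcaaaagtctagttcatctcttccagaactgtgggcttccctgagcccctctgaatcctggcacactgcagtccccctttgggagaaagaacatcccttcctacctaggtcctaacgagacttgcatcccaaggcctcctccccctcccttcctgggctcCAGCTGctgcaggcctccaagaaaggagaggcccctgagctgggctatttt
Eno3, chr11:70656926-70657175, plus strand: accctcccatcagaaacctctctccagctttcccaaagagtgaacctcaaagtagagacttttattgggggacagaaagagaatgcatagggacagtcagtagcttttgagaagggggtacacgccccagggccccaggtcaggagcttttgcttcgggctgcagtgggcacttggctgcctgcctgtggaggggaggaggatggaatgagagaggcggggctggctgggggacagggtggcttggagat
In the Myh4 window the capitals are, in order, a MEF2 site, a CArG box and an E-box. The window of Acta1 holds an E-box and then a CArG box, and that of Mylpf holds an E-box alone. That of Eno3 holds none of the 3 marked motifs, where the E-box marked is CAGCTG alone. These windows were picked and do not stand for the list. Tpm3 and Tnni1, which did not follow the muscle pattern either, held CAGCTG at their first listed start. Actn2, Ryr1, Mybpc2, Smpx and Myh2, which followed it, held none of the 3 marked motifs.

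The libraries held 14988588 to 18961134 counted reads, and a gene with 0 reads may still have up to 3 by counting error alone, or 0.158 to 0.2 CPM. CPM is the read count scaled to a common library total, here after TMM scaling, and it compares 1 gene between libraries. FPKM also divides by gene length and is used wherever levels of different genes are compared. Replicates of a group differed by more than sampling noise in every pair. Of the markers of an epithelial carcinoma, Epcam stood at only 0.112 to 0.956 CPM and Krt19 at 0 to 0.531 CPM, while Cdh1, which encodes E-cadherin, stood at 18.1 to 39.5 CPM.

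Muscle RNA was a small part of every library and differed widely between them. The 38 genes other than Tpm3 and Eno3, which many non-muscle cells also use, summed to 50.4, 252 and 431 CPM in the vehicle libraries. They summed to 82, 1204 and 43.5 CPM in the Mn-N/C libraries. The highest and the lowest library were thus both Mn-N/C libraries, and the groups overlapped. As a share of all counts these genes took 0.121% in Mn-N/C replicate 2 and 0.00432% in Mn-N/C replicate 3.

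**Figure D1:**
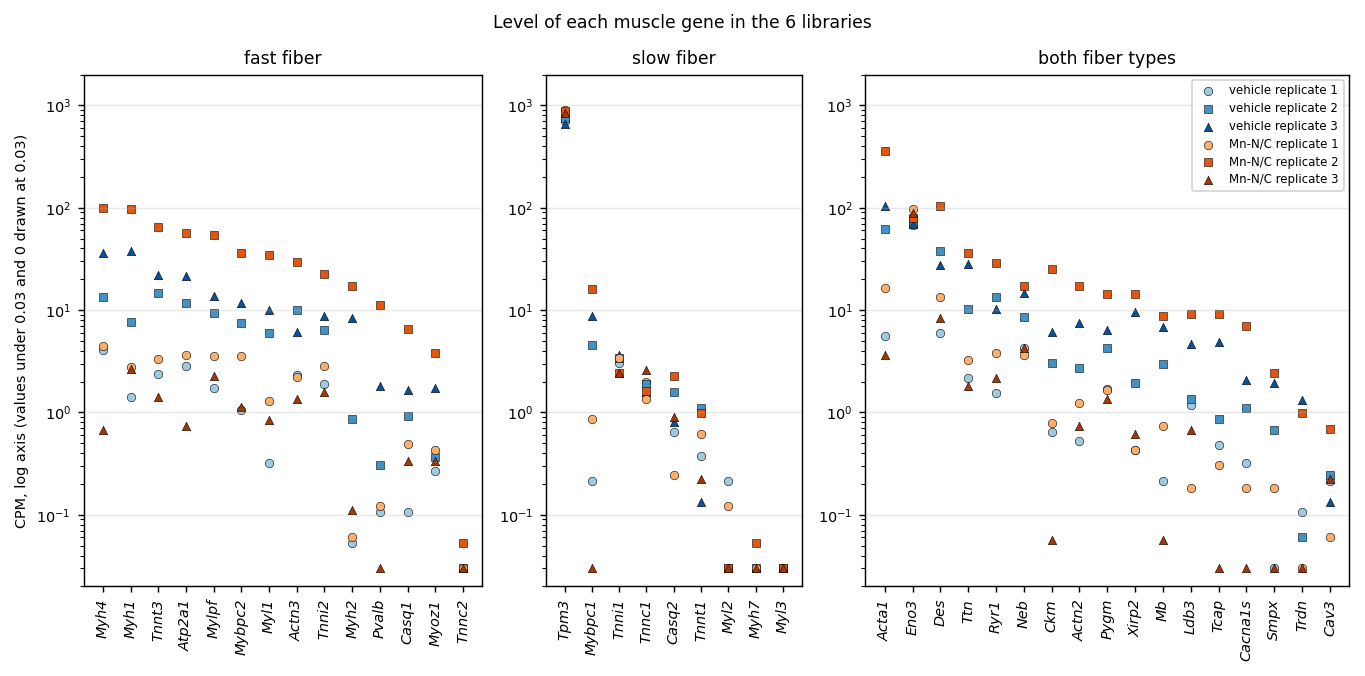
CPM of each of the 40 genes (log axis) in the 6 libraries, split into fast fiber, slow fiber and shared genes and ordered by mean level, with 1 point per library and values under 0.03 drawn at 0.03. Most fast and shared genes are highest in Mn-N/C replicate 2, as for Acta1 at 355 CPM, whereas Tpm3 and Eno3 hardly move.

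The 8 genes too low for testing by the filter on low counts were Myh7, Myl2, Myl3, Tnnc2, Pvalb, Myoz1, Cav3 and Trdn, which left 32, namely 11 of 14 fast, 6 of 9 slow and 15 of 17 shared genes. Of these 32, 27 had their highest level in Mn-N/C replicate 2, against 19.4% of all genes tested. Their lowest level fell in Mn-N/C replicate 3 for 13 genes, in vehicle replicate 1 for 12 and in Mn-N/C replicate 1 for 4. The SD of log2 CPM over the 6 libraries had a median of 1.57 for the genes of the list and 0.18 for all genes tested. It lay above 0.90, the 99th percentile of all genes, for 26 of the 32: all 11 fast genes tested, 14 of the 15 shared genes and 1 of the 6 slow genes.

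The thick filament is made of myosin heavy chains, which carry the motor, and of light chains and myosin binding proteins. Myh4 encodes the heavy chain of the fastest fibers (type IIb), Myh1 that of IIx fibers, Myh2 that of IIa fibers and Myh7 that of slow fibers. The 3 fast genes lie side by side on chromosome 11, with Myh4 at 67128855 to 67151272 as the deposited table gives it. They share long stretches of near-identical sequence, so the split of reads between them is uncertain. Myh4 stood at 4.04, 13.3 and 36.2 CPM in the vehicle libraries and at 4.48, 99.9 and 0.675 CPM in the Mn-N/C libraries. Myh1 stood at 1.43, 7.59 and 37.4 CPM in the vehicle libraries and at 2.76, 97.3 and 2.64 CPM in the Mn-N/C libraries. Myh2 was lower, at 0.0531, 0.857 and 8.46 CPM and then 0.0613, 17.1 and 0.112 CPM. In all 3 genes Mn-N/C replicate 2 was the highest library and vehicle replicate 3 the next, and the 2 groups overlapped. Myh7 had 1 read in the whole series.

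Light chains followed the fast heavy chains. Mylpf, the regulatory light chain of fast myosin, stood at 1.75, 9.37 and 13.7 CPM in the vehicle libraries and at 3.56, 53.6 and 2.25 CPM in the Mn-N/C libraries. Myl1, the essential light chain of fast myosin, ranged from 0.319 CPM in vehicle replicate 1 to 34.7 CPM in Mn-N/C replicate 2. The slow light chains were nearly absent, with 6 reads of Myl2 and 0 reads of Myl3 over all libraries. Of the myosin binding proteins, Mybpc2, the fast form, ranged from 1.06 to 36.3 CPM. Mybpc1, the form named for slow fibers, nevertheless moved as the fast genes did, at 0.212, 4.53 and 8.73 CPM in the vehicle libraries and 0.858, 16 and 0 CPM in the Mn-N/C libraries. It was the 1 slow gene whose SD passed the 99th percentile.

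The thin filament is built on skeletal actin, encoded by Acta1, which was the muscle gene with the highest FPKM in Mn-N/C replicate 2. Acta1 lies on chromosome 8 at 124618508 to 124621490 in the deposited table. It stood at 5.58, 61.4 and 104 CPM in the vehicle libraries and at 16.6, 355 and 3.6 CPM in the Mn-N/C libraries. Mn-N/C replicate 2 was 3.43 times the highest vehicle library and the other 2 Mn-N/C libraries lay under vehicle replicates 2 and 3. Per length, Acta1 reached 232 FPKM in Mn-N/C replicate 2, Mylpf 50.7 FPKM, Tnnt3 40.8 FPKM, Myh4 16.7 FPKM and Myh1 15.4 FPKM. Neb, which encodes the long ruler protein nebulin, varied less than Acta1, from 3.68 to 17.1 CPM.

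Troponin, the calcium switch of the thin filament, has a tropomyosin-binding, an inhibitory and a calcium-binding subunit. Tnnt3, the fast tropomyosin-binding subunit, stood at 2.39, 14.6 and 22.1 CPM in the vehicle libraries and at 3.31, 64.3 and 1.41 CPM in the Mn-N/C libraries. Tnni2, the fast inhibitory subunit, ranged from 1.57 CPM in Mn-N/C replicate 3 to 22.3 CPM in Mn-N/C replicate 2. Tnnc2, the fast calcium-binding subunit, had only 1 read in the series although its 2 fast partners were well covered. The slow subunits moved much less. Tnni1 stood at 3.03, 3.43 and 3.6 CPM in the vehicle libraries and 3.43, 2.42 and 2.42 CPM in the Mn-N/C libraries, and Tnnc1 kept between 1.35 and 2.59 CPM. Tnnt1 lay between 0.133 and 1.1 CPM.

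At the Z disc, alpha-actinin cross-links the actin filaments, titin spans from there to the middle of the sarcomere and desmin links neighbouring discs. Des, the desmin gene, stood at 6, 37.5 and 27.4 CPM in the vehicle libraries and at 13.5, 103 and 8.43 CPM in the Mn-N/C libraries. Ttn, the titin gene, stood at 2.18, 10.2 and 28 CPM and at 3.25, 35.8 and 1.8 CPM. Both were highest in Mn-N/C replicate 2, and their groups overlapped. Actn3, the alpha-actinin of fast fibers, ranged from 1.35 to 29.5 CPM and Actn2, the form of all fibers, from 0.531 to 17.3 CPM. Tcap, Ldb3, Xirp2 and Smpx, further Z disc and cytoskeletal genes, were also highest in Mn-N/C replicate 2.

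All 5 calcium and membrane genes tested were highest in Mn-N/C replicate 2. Atp2a1, the calcium pump of fast fibers, stood at 2.81, 11.8 and 21.3 CPM in the vehicle libraries and at 3.68, 56.1 and 0.731 CPM in the Mn-N/C libraries. Ryr1, the calcium release channel, ranged from 1.54 to 28.6 CPM, and Cacna1s, its voltage sensor, from 0 to 6.98 CPM. Casq1, the calcium-storing calsequestrin of fast fibers, ranged from 0.106 to 6.56 CPM, while Casq2, its slow and cardiac counterpart, ranged from 0.245 to 2.26 CPM. Pvalb, the calcium buffer parvalbumin of the fastest fibers, had 2, 5 and 27 reads in the vehicle libraries and 2, 216 and 0 reads in the Mn-N/C libraries. These reads too were concentrated in Mn-N/C replicate 2.

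Among energy genes, Ckm, the muscle creatine kinase, stood at 0.637, 3.06 and 6.13 CPM in the vehicle libraries and at 0.797, 25.1 and 0.0562 CPM in the Mn-N/C libraries. Mb, the oxygen store myoglobin, ranged from 0.0562 to 8.66 CPM and Pygm, muscle glycogen phosphorylase, from 1.35 to 14.4 CPM. Eno3, the muscle enolase, behaved otherwise and is described with Tpm3 below.

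To set the lists side by side, the log2 CPM of each tested gene was centred on its average in the 6 libraries, and the centred values were averaged within a list. For fast fiber genes this list level was -1.59, 0.35 and 1.26 in the vehicle libraries and -1.03, 2.82 and -1.81 in the Mn-N/C libraries. For shared genes it was -1.23, 0.28 and 1.15, then -0.91, 2.12 and -1.42. For slow fiber genes it was only -0.42, 0.38 and 0.13, then -0.29, 0.65 and -0.45. Fast and shared genes thus ranked the 6 libraries in the same order, with a wider range than the slow genes. The slow genes tested were not alike, with an SD of log2 CPM of 2.07 for Mybpc1 and 0.18 to 0.67 for the rest. Of these, Tpm3, Tnni1 and Tnnc1 did not follow the muscle pattern, so the range of this list is not a measure of slow fibers.

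**Figure D2:**
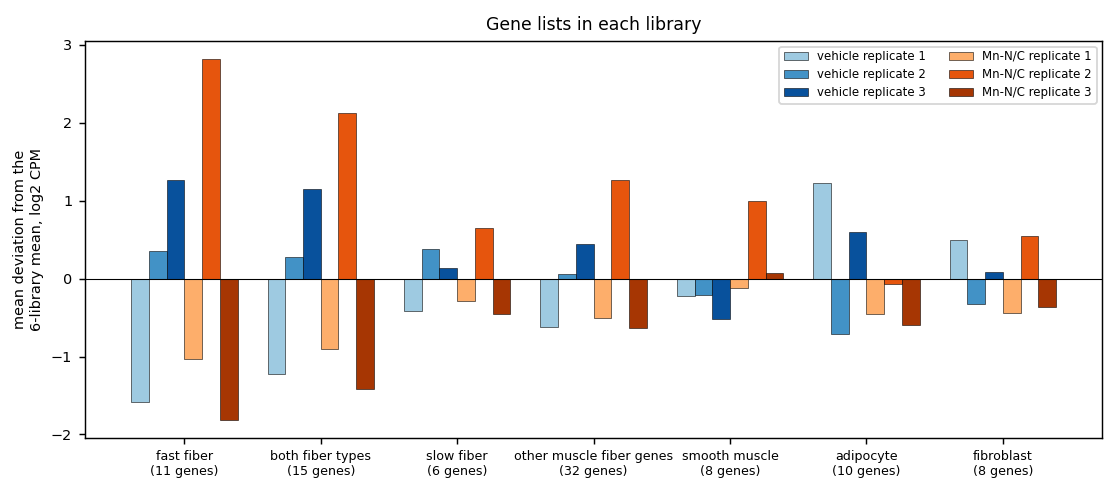
Mean deviation of each gene list from its 6-library mean (y axis, log2 CPM) in the 6 libraries, 1 bar per library. Fast fiber genes reach 2.82 in Mn-N/C replicate 2 and -1.81 in Mn-N/C replicate 3, while adipocyte genes are highest in vehicle replicate 1 at 1.23.

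A further 51 genes of muscle fibers gave the same order at a smaller size. Of the 32 tested, 25 were highest in Mn-N/C replicate 2, and their list level was -0.62, 0.06 and 0.44, then -0.51, 1.27 and -0.64. Its 4 most abundant genes, Phka1, Fbxo32, Srl and Hspb6, are also expressed outside muscle and ranged only from 21.3 to 28.2, 21.5 to 24.6, 9.83 to 20.2 and 8.32 to 17.9 CPM. Transcripts of muscle-forming cells were few. Myog, which drives myoblast differentiation, had 1, 25 and 5 reads in the vehicle libraries and 6, 34 and 5 reads in the Mn-N/C libraries. Myod1 had at most 9 reads in a library and Pax7, the satellite cell marker, had 0 in all. Myf6, expressed in mature fibers, had 1, 7 and 10 and then 0, 25 and 2 reads. Mef2d, Six4 and Mef2c, which were well expressed, had means of 149, 31 and 21.5 CPM, and none was highest in Mn-N/C replicate 2. The list of myogenic regulators summed to 213 to 235 CPM and that of developing fibers, mostly Ncam1, to 67.8 to 77.1 CPM. Of the 4 developing fiber genes tested, 3 were highest in Mn-N/C replicate 2, where the list level was 0.50 against -0.47 to 0.45 in the others. Embryonic Myh3 and perinatal Myh8 had at most 35 and 21 reads, both in Mn-N/C replicate 2. Heart muscle genes Myh6 and Nppa had 0 reads. Of the 5 heart genes tested, 4 were highest in Mn-N/C replicate 2, among them Nppb at 32.8 CPM against 14.2 to 26.6 CPM and Ankrd1 at 47.3 CPM against 28.4 to 47 CPM, and the list level was 0.60 there against -0.42 to 0.10 in the others. Tnnt2, the most abundant, stood at 385 to 481 CPM and was lowest in that library.

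The part of other host cell lists in the muscle pattern was not tested. All 8 smooth muscle genes tested had a log2 fold change above 0, where the median of all genes tested was 0.00. Of the 8, 7 were highest in Mn-N/C replicate 2, against 19.4% of all genes tested. That library held 292 CPM summed over the list, against 137 to 204 CPM in the others. Acta2, smooth muscle actin, stood at 39.4, 40.8 and 28 CPM in the vehicle libraries and at 50.8, 124 and 51.3 CPM in the Mn-N/C libraries. Its groups did not overlap, unlike those of its skeletal paralog Acta1, but 14.2% of all genes tested also lay wholly above vehicle. Its log2 fold change of 1.07 had an edgeR adjusted p of 0.182, the smallest value of any gene tested. Fibroblast genes summed to 8244 CPM in Mn-N/C replicate 2 against 3478 to 5993 CPM in the others, a sum carried by the collagen genes Col1a1, Col1a2 and Col3a1. Only 4 of the 8 fibroblast genes were highest there, Dcn was lowest there at 243 CPM, and the list level of 0.55 was close to the 0.50 of vehicle replicate 1. Adipocyte genes were highest in vehicle replicate 1, at 115 summed CPM, where muscle genes were low, and stood at 31.8 to 92.5 CPM in the other libraries. All 10 adipocyte genes tested had a log2 fold change below 0. Car3 differed from the rest of that list, being highest in Mn-N/C replicate 2 at 25.4 CPM and next in vehicle replicate 3 at 23.2 CPM. Skin keratinocyte genes summed to 142 to 209 CPM, mostly Krt14. Krt5 had at most 6 reads in a library and Krt15 had 0 in all. Nerve and Schwann cell genes summed to 146 to 182 CPM, mostly Pmp22 at 118 to 149 CPM. Sox10 had at most 1 read in a library. These sums therefore do not measure skin or nerve in the pieces. Endothelial genes summed to 117 to 209 CPM and macrophage genes to 962 to 1334 CPM. All 8 macrophage genes tested had a log2 fold change above 0, with a median of 0.17 and 0 at an unadjusted edgeR p under 0.05. Of the 8, 6 were highest in Mn-N/C replicate 2, against 19.4% of all genes tested, and the list level there was 0.28.

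The make-up of the muscle RNA was read from the myosin heavy chains. Myh4, Myh1, Myh2 and Myh7 summed to 0.923, 3.51 and 13.1 FPKM in the vehicle libraries and to 1.16, 34.5 and 0.54 FPKM in the Mn-N/C libraries. The IIb gene Myh4 made up 74.2, 62.7 and 46% of that sum in the vehicle libraries and 62.7, 48.4 and 20.6% in the Mn-N/C libraries. In reads, the 95% Wilson interval of its share was 63.8 to 80.7% in vehicle replicate 1, 41.4 to 46.9% in vehicle replicate 3 and 11.6 to 31.3% in Mn-N/C replicate 3. The make-up thus differed within a group beyond counting error, which is the only error these intervals cover. The IIa gene Myh2 made up 9.05% in vehicle replicate 3 and 6.97% in Mn-N/C replicate 2, the 2 libraries with most muscle RNA. It made up 0.724 to 3.41% in the other 4, where it had only 1 to 14 reads. In Mn-N/C replicate 3 the interval of its read share ran from 0.904 to 11.2%, which covers both higher shares. The slow gene Myh7 made up 0 to 0.0178%, and in Mn-N/C replicate 2 the interval of its read share ran from 0.00433 to 0.139%.

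Troponin paralogs did not all lean the same way. Per length, Tnnt3 made up 88.3 to 99.6% of the summed FPKM of Tnnt3 and Tnnt1. Tnni2 made up 60.3, 81.7 and 85.4% of Tnni2 and Tnni1 in the vehicle libraries and 66.4, 95.7 and 61% in the Mn-N/C libraries. Its share was highest in the library with most muscle RNA, and Tnni1 kept between 2.42 and 3.6 CPM while Tnni2 moved. In the calcium-binding pair the slow form led, and Tnnc2 made up 4.03% in Mn-N/C replicate 2 and 0% in the other libraries. That 4.03% rested on 1 read. Tnnc1 did not follow the muscle pattern and was highest, at 2.59 CPM, in Mn-N/C replicate 3, the library with least muscle RNA. This pair therefore does not tell slow from fast fibers.

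**Figure D3:**
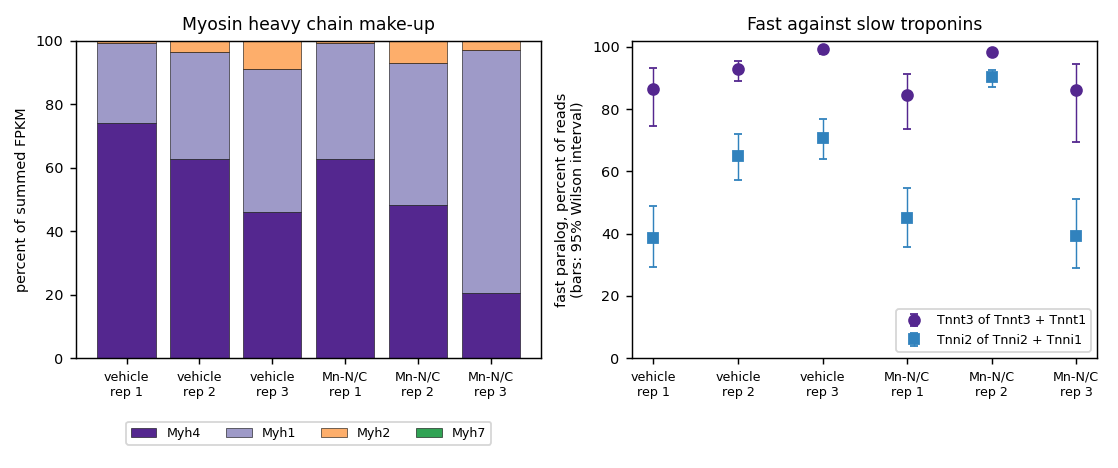
Left, percent of the summed FPKM of 4 myosin heavy chain genes in each library (stacked bars), with Myh4 between 20.6 and 74.2%. Right, reads of the fast troponin paralog as a percent of the fast and slow pair in each library, with 95% Wilson intervals, where Tnni2 is highest in Mn-N/C replicate 2 at 90.2%.

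Vehicle replicates 2 and 3 did not differ by 1 common factor over the muscle genes. In these 2 libraries 33 genes had more than 3 reads each, and 26 of them were higher in replicate 3. The ratio of replicate 3 to replicate 2 had a median of 1.8 and ran from 0.502 to 9.87. Myh2 gave 9.87, Pvalb 5.87, Tcap 5.67 and Myh1 4.93, whereas Casq2 gave 0.502, Actn3 0.6, Des 0.732 and Ryr1 0.768. By list, 12 of 13 fast genes were higher in replicate 3, with a median ratio of 1.8 and Actn3 as the exception, as were 12 of 15 shared genes. Of 5 slow genes, 2 were higher, with a median ratio of 0.875. Across these genes the ratio had a Spearman rho of 0.13 with gene length, against 0.22 over all genes tested. The ratio of Mn-N/C replicate 2 to vehicle replicate 3 had a median of 2.55 and ran from 0.671 for Tnni1 to 6.31.

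The comparison of groups asked whether Mn-N/C changed these genes. With edgeR's quasi-likelihood test, 0 of the 32 genes and 0 of all 12800 genes tested passed an adjusted p of 0.05, a background of 0%, and 0 members had an absolute log2 fold change over 1.8. At an unadjusted p under 0.05 there were 2 members of 32 and 2682 genes in all (21%). DESeq2 called 787 genes and limma on log2(FPKM + 1) called 0 of 10714. The fold change was above 0 for 29 members and below 0 for 3, with a median of 0.65 on the log2 scale against 0.00 for all genes. By list, the median was 0.99 for fast, 0.50 for shared and 0.19 for slow fiber genes. By limma on log2(FPKM + 1), where fewer members were tested, they were 0.06, 0.14 and 0.13, and at a pseudocount of 0.1 they were -0.04, -0.19 and 0.12.

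These fold changes rested on 1 library. Acta1 had a log2 fold change of 1.15 (SE 1.40, adjusted p 0.674 by edgeR), Myh1 of 1.17 (SE 1.41, adjusted p 0.671) and Ckm of 1.42 (SE 1.43, adjusted p 0.603). Mylpf stood at 1.28, Myh4 at 0.99, Tnnt3 at 0.84, Des at 0.82, Atp2a1 at 0.77 and Mybpc1 at 0.34. The 30 genes tested other than Tpm3 and Eno3 had edgeR adjusted p-values of 0.493 to 0.992 and standard errors of 0.267 to 1.7. Without Mn-N/C replicate 2 the direction turned: 28 of 31 genes tested lay below 0, with a median of -2.33 against -0.01 for all genes. That library was the highest for 27 of 32 genes, so leaving it out had to lower most of their fold changes. The turn therefore shows how much rested on that library and is no test of Mn-N/C. The medians of the lists then were -2.33 for fast, -2.41 for shared and -0.19 for slow fiber genes. Acta1 then stood at -2.49, Myh4 at -2.79 and Ckm at -2.93. In that comparison edgeR again called 0 members, and the smallest adjusted p was 0.323. It gave an unadjusted p under 0.05 for 20 of 31 genes, against 15.3% of all genes tested. These 20 included Tpm3 at 0.30 and Eno3 at 0.43, which lay above 0. Most members moved together over the libraries, so such counts largely repeat 1 difference between libraries. The other muscle fiber genes turned in the same way, from 28 of 32 above 0 to 25 of 31 below 0.

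**Figure D4:**
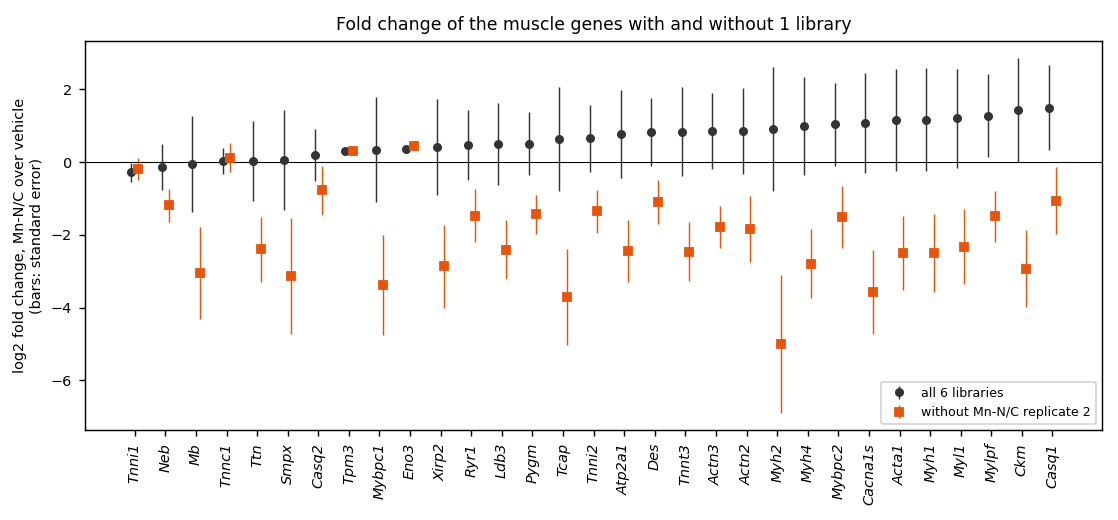
Log2 fold change of Mn-N/C over vehicle (y axis, bars are standard errors) for the 31 genes tested both with all 6 libraries (circles) and without Mn-N/C replicate 2 (squares). The median moves from above 0 to -2.33 without that library, while Tpm3, Eno3 and Tnnc1 stay above 0.

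Only Tpm3 and Eno3 had groups that did not overlap, both higher with Mn-N/C. That is 2 of 32 genes above and 0 below, where 14.2% of all genes tested lay wholly above and 12.1% wholly below. Tpm3 encodes a tropomyosin found in slow fibers and, in other isoforms, in most cell types. It stood at 711, 753 and 659 CPM in the vehicle libraries and at 900, 887 and 840 CPM in the Mn-N/C libraries. The means were 708 ± 47.2 and 876 ± 31.3 CPM (SD, n = 3), and the log2 fold change was 0.31 (SE 0.0749, adjusted p 0.182 by edgeR). Eno3 stood at 67.2, 70.3 and 69.4 CPM in the vehicle libraries and at 96.6, 79.9 and 88.6 CPM in the Mn-N/C libraries. Its log2 fold change was 0.36 (SE 0.0863, adjusted p 0.182 by edgeR). Neither gene tracked the muscle pattern, and both were well covered in the 2 libraries with least muscle RNA. Per length, Tpm3 stood at 108 to 146 FPKM and was the most abundant gene of the list in every library but Mn-N/C replicate 2.

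The call for these 2 genes depended on the tool, and for Tpm3 also on 1 library. DESeq2 gave adjusted p-values of 0.00991 for Tpm3 and 0.0227 for Eno3, the 2 of 32 members it called, against a background of 2.75% of all genes called higher. It gave no adjusted p for 22 of the 32. Without vehicle replicate 2, edgeR gave 0.0495 for Tpm3 and 0.0568 for Eno3, with 2.5% of genes called higher. Over the 16 alternatives the log2 fold change of Tpm3 was 0.26 to 0.38 with adjusted p-values of 0.00991 to 0.452. That of Eno3 was 0.29 to 0.43 with adjusted p-values of 0.0227 to 0.452.

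**Figure D5:**
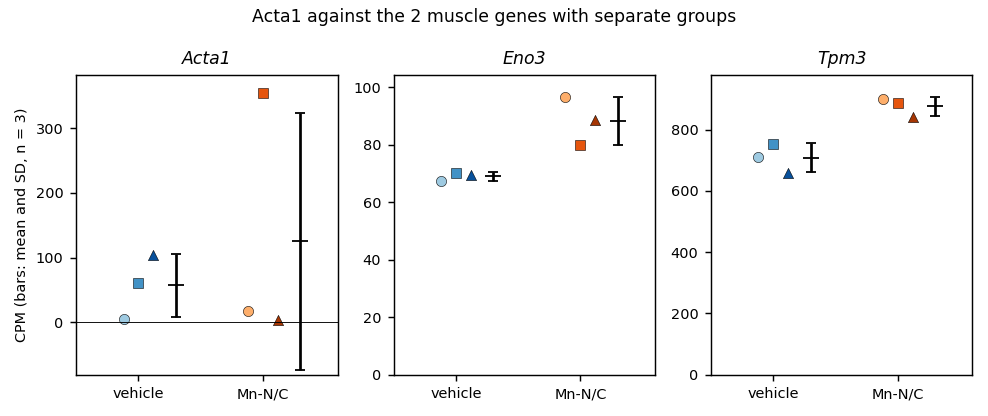
CPM of Acta1, Eno3 and Tpm3 in the 6 libraries (points) with the mean and SD of each group (bars, n = 3). Acta1 spans 3.6 to 355 CPM within the Mn-N/C group, whereas all Mn-N/C libraries lie above all vehicle libraries for Eno3 and Tpm3.

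Tnni1, the slow inhibitory troponin, was 1 of the 3 genes below 0, with a log2 fold change of -0.28 (SE 0.267, adjusted p 0.577 by edgeR) and overlapping groups. It was also higher in every vehicle library than in Mn-N/C replicates 2 and 3.

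The genes outside the list whose levels ran most like it were ranked by Pearson's r with the mean profile of the 32 tested genes, over 6 libraries and 11940 genes with a mean of at least 1 CPM. Among the nearest were Trim63 with r = 0.994, Hspb7 with 0.992, Zmat3 with 0.990, Myom2 with 0.986 and Ctsf with 0.986. Further ones were Hjv, Fhl1, Ndrg2, Mypn, Stap2, Csrp3, Eef1a2, Slc35g1 and Myom3, down to 0.975. Trim63, Hspb7, Myom2, Mypn and Myom3 belong to the further list of muscle fiber genes. Trim63, which encodes a muscle ubiquitin ligase, stood at 0.319, 2.14 and 2.6 CPM in the vehicle libraries and at 0.674, 6.2 and 0.281 CPM in the Mn-N/C libraries. Zmat3 and Slc35g1 moved little, from 39.8 to 46.2 CPM and from 22.7 to 29.2 CPM, so a high r here does not mean a large difference. Of all genes ranked, 58 had r over 0.9. So did 25 of the list's own tested genes, but the mean profile was made from these genes. Their count therefore cannot be set against that of the genes outside the list. The 6 libraries share 1 dominant high sample, on which any such r leans.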

How the data were processed

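RNA of 6 MC38 tumor samples was compared as 3 vehicle against 3 Mn-N/C libraries. The authors deposited whole-number read counts per gene, without normalization, and FPKM values that they made from these counts, gene length and library totals. The submitters' notes name HISAT2 2.0 and mm10, while the counter, its use of strand and the gene models are not named in the sources read here. The build behind the deposited coordinates is not named in the table.
The main test was edgeR's quasi-likelihood test (version 4.0.16 under R 4.3.3, TMM scaling, default filterByExpr, a model with the group alone) on the counts of 12800 genes. It used Benjamini-Hochberg adjustment and a threshold of 0.05. The test was run first on simulated counts in which all genes varied alike and no library stood out. That run does not cover genes that vary as most members did. The standard errors given with edgeR are approximate, being the absolute log2 fold change divided by the square root of the F value of the test. DESeq2 1.42.0 was run on the same genes, and limma 3.58.1 on log2(FPKM + 1). Other alternatives were scalings, filters, pseudocounts, the replicate number as a block, a gene length correction and each library left out. The members and lists were chosen with earlier results of these data known. The genes named are all 40 members, the most abundant genes of the other lists (up to 4 per list) and the 15 genes nearest in profile, of which some are not reported here. Defining markers of other lists that had few or no reads were named after their values were seen.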

Additional observations from a re-analysis of the deposited data

How the results depend on the processing

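Over 16 alternatives, 157 of 188 recomputed fold changes of the 12 members whose fold change is given stayed on the same side of 0 and of the threshold, 28 changed sign and 3 newly passed it. The cause of the changes was not tested. DESeq2 called 2 members higher, and leaving out 1 library at a time called 0 to 1, with 1 only without vehicle replicate 2. The number of members with a log2 fold change above 0, 29 of 32, became 11 of 17 in limma on log2(FPKM + 1) and 7 of 17 on log2(FPKM + 0.1), where fewer genes were tested, and moved between 3 (without Mn-N/C replicate 2) and 34 when 1 library was left out.
No pairing by replicate number was seen, as deviations of same-numbered samples correlated at -0.14, 0.00 and 0.08. With 3 samples per group these values cannot exclude a pairing. With the replicate block, 14 of 32 members lay above 0, edgeR called 0 members, and Myh4 stood at -0.18, Tnnt3 at -0.10, Atp2a1 at -0.18 and Mybpc1 at -0.17. Limma on log2(FPKM + 1) turned Myh4 to -0.05, Acta1 to -0.18, Tnnt3 to -0.23 and Atp2a1 to -0.14, with the same values without a filter, where Mybpc1 stood at -0.06. With a pseudocount of 0.1 these 4 stood at -0.64, -0.26, -0.44 and -0.60 and Ckm at -0.36.
The median of fast, shared and slow genes was 0.11, -0.17 and -0.05 with the replicate block, 0.06, 0.14 and 0.13 by limma on log2(FPKM + 1), 0.19, 0.05 and -0.01 without its filter and -0.04, -0.19 and 0.12 with a pseudocount of 0.1. Leaving out 1 library gave medians of -2.33 to 1.85 for fast and -2.41 to 1.41 for shared genes. The lowest value came without Mn-N/C replicate 2 and the highest without vehicle replicate 3. Single genes ranged from -2.79 to 2.03 for Myh4, -2.50 to 2.95 for Myh1, -1.49 to 1.85 for Mylpf, -2.49 to 1.92 for Acta1, -2.46 to 1.46 for Tnnt3, -2.44 to 1.48 for Atp2a1, -2.93 to 2.25 for Ckm, -3.38 to 1.26 for Mybpc1 and -1.10 to 1.35 for Des, whose highest value came without vehicle replicate 2. Counted in reads instead of FPKM, the share of Myh4 in Mn-N/C replicate 2 was 46.6%. Genes with under 3 reads in a library cannot be told from 0 at this depth.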
